A study of Homo sapiens with 3 samples.

Results

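The major histocompatibility complex (MHC) region of chromosome 6 holds, beside the HLA genes, many genes with no part in antigen presentation. The 80 genes described here are the protein-coding genes that start within the 5.4 Mb from position 28000000 of chromosome 6 (GRCh38), reached 50 counts in at least 1 library and were not left out by name. They were chosen by this count threshold and by place. The names left out were the HLA, TAP, PSMB, TRIM and SLC families with C2, C4A, C4B, CFB, MICA, MICB, NEU1, HSPA1A, HSPA1B, IER3, VARS1, VARS2 and EHMT2, and that list was drawn up with the changes of these genes in the same libraries known. The region held 192 protein-coding genes, of which 80 were members, 37 were left out by name and 75 stayed under the threshold, 38 of them with 0 counts in every library. The question was whether location in the region alone goes with a fall when FLI1 is targeted. Since the list of left-out genes was set on the same contrast, the number of members that fell is given as a description of these genes.

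HK1 is an established nasopharyngeal carcinoma line. Poly-A RNA-seq was collected from it after incubation with activated CD8+ T cells, in 1 wild-type (WT) library and 2 FLI1-knockout (KO) libraries made with different single guide RNAs, sgFLI1-1 and sgFLI1-2. FLI1 is an ETS-family transcription factor. No source used here says whether each KO line was a clone or a pool, or whether the KO libraries came from separate cultures, so p-values measure only the spread between these libraries, with no replicate of WT. The libraries held 22172158 (WT), 23904587 (sgFLI1-1) and 22409203 (sgFLI1-2) counts. FLI1 itself had 125 counts in WT against 11 (library labelled sgFLI1-1) and 109 (library labelled sgFLI1-2) (log2 fold change -1.09, SE 0.84, edgeR adjusted p = 0.515). Its mRNA thus stood near the WT level in the second of these, and the counts measure neither the edit nor the protein. Where 3 values follow each other unnamed, their order is WT, the library labelled sgFLI1-1, the library labelled sgFLI1-2. Of 12 T cell markers 9 were at 0 in every library, and their summed counts were 12, 6 and 17 in the same order. Of 8 squamous epithelial markers 6 could be tested and 0 were called. KRT17 (996, 790 and 641 counts) and SFN (2322, 1778 and 1659) were abundant, while KRT5 (8, 0 and 7) and TP63 (5, 0 and 0), which define basal squamous cells, were nearly absent. KRT6A (30, 5 and 3), KRT14 (16, 12 and 44) and CDH1 (14, 40 and 23) were also low, and EPCAM had 183, 160 and 93 counts.

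By convention the region is read as blocks. The class I and class II blocks carry the genes whose products hold peptides at the cell surface, many of which respond to interferon-gamma, the cytokine that activated T cells release. The class III block between them is one of the most gene-dense stretches of the genome and encodes RNA helicases, chaperones, complement components and the tumour necrosis factor (TNF) cluster. The extended class I block begins with a cluster of zinc finger genes, and the extended class II block holds chromatin, ribosome and trafficking genes.

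Promoters of 4 members and of the left-out gene TAP1 are shown. Of the members, UBD fell to near 0 and ABHD16A was the one called lower by both edgeR and DESeq2. BRD2 is the one whose outermost annotated start lies nearest to that of a gene that fell. SKIV2L, named SKIC2 in RefSeq, lies in the dense complement stretch and did not pass the test. These promoters were chosen after the values were seen. Sequences are RefSeq windows from 250 bases before to 50 after an annotated start, on GRCh38.p14, 5′ to 3′ on the gene's strand. Capitals mark matches, on either strand, to the interferon regulatory factor core GAAANNGAA or to the ETS motif CCGGAAGT.
UBD, chr6:29559683-29559982, minus strand: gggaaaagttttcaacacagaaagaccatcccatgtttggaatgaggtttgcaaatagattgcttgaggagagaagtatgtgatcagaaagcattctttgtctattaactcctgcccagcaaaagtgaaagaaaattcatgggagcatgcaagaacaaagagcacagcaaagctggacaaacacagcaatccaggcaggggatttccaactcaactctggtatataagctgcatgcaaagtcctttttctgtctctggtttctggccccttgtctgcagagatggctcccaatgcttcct
ABHD16A, chr6:31702909-31703208, minus strand: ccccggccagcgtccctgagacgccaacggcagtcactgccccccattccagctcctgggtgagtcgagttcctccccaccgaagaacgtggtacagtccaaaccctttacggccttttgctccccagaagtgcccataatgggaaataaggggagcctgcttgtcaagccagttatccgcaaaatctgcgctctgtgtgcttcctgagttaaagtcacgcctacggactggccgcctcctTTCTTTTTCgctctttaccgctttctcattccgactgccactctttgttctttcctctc
BRD2, chr6:32968344-32968643, plus strand: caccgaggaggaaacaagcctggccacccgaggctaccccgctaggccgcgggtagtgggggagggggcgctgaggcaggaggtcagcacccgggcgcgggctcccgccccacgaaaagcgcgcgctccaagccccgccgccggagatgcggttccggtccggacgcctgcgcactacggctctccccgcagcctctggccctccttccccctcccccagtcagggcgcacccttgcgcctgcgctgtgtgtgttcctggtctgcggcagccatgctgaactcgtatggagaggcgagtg
SKIV2L, chr6:31958925-31959224, plus strand: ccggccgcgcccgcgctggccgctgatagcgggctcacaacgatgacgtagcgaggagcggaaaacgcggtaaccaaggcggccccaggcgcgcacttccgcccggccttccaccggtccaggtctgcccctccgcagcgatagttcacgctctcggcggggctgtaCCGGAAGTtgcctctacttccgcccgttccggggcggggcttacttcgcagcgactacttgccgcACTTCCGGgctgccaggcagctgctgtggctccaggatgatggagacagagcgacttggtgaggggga
TAP1, chr6:32853655-32853954, minus strand: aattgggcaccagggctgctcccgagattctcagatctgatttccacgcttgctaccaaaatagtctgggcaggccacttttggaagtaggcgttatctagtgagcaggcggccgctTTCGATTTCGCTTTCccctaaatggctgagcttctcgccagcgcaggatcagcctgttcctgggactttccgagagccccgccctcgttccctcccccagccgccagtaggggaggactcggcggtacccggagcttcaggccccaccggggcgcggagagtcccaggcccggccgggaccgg
The capitals in ABHD16A are 1 match to the interferon regulatory factor core, and its other RefSeq window, which covers the start of transcription as the table gives it, holds no match to either motif. Of the rest, the capitals in SKIV2L are 2 matches to the ETS motif, and those in TAP1 are 2 overlapping matches to the interferon regulatory factor core. Another RefSeq window of TAP1, not shown, holds neither motif but has 1 match to TTCNNNGAA, the interferon-gamma-activated site. The UBD and BRD2 windows shown hold neither motif, and nor do the other RefSeq windows of BRD2.

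The median log2 fold change of both KO libraries against WT was -0.13 over the 80 members (interquartile range -0.37 to 0.10), and it was 0.00 over all 15483 genes tested (-0.36 to 0.31). Taken singly, each KO library gave a median of -0.12. Of the members, 64 (80%) lay within 0.5 of 0 on the log2 scale, where 65.3% of all tested genes did. All tested genes include noncoding genes and genes under 50 counts. Among the 11142 tested protein-coding genes that reached 50 counts, 75.2% lay within 0.5 of 0. Their median was 0.01 and their interquartile range -0.28 to 0.26, against -0.37 to 0.10 for the members. Under -0.5 lay 13 members and 18.8% of all tested genes, and over 0.5 lay 3 members and 15.9% of all tested genes. A gene was called at an edgeR adjusted p under 0.05 over all tested genes and a change of at least 2-fold. By this rule 2.95% of all tested genes were called lower and 1.83% higher, and of those 11142 protein-coding genes 3.57% and 2.15%. Among the members 3 were lower and 0 higher. Of the 3, UBD and OR2I1P reached the 50-count threshold only in WT, as did APOM, which was not called. Such a gene enters the members only through the library where it is high, and with 50 counts required in every library 1 call was left. At an unadjusted edgeR p under 0.05, 13 members were lower and 4 higher, where 11.1% and 9.63% of all tested genes were. DESeq2 called 1 lower and 0 higher, where it called 2.45% and 1.94% of the genes to which it gave an adjusted p.

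Both KO libraries lay below WT for 42 members, above it for 20 and on either side of it for 18, where 40.8% of all tested genes had both below and 38.4% both above. The left-out genes, whose names were set on this contrast, had 25 of 37 called lower, 2 called higher and a median of -2.20. Protein-coding genes elsewhere on chromosome 6 that reached 50 counts had 14 of 473 called lower and 21 higher, with a median of 0.09. The flanks were stretches of the same length on either side of the positions chosen here, which need not be borders of the MHC. Their medians were 0.15 over 24 genes below and -0.08 over 47 genes above. In them 5 and 6 genes were called lower and 3 and 1 called higher.

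**Figure D1:**
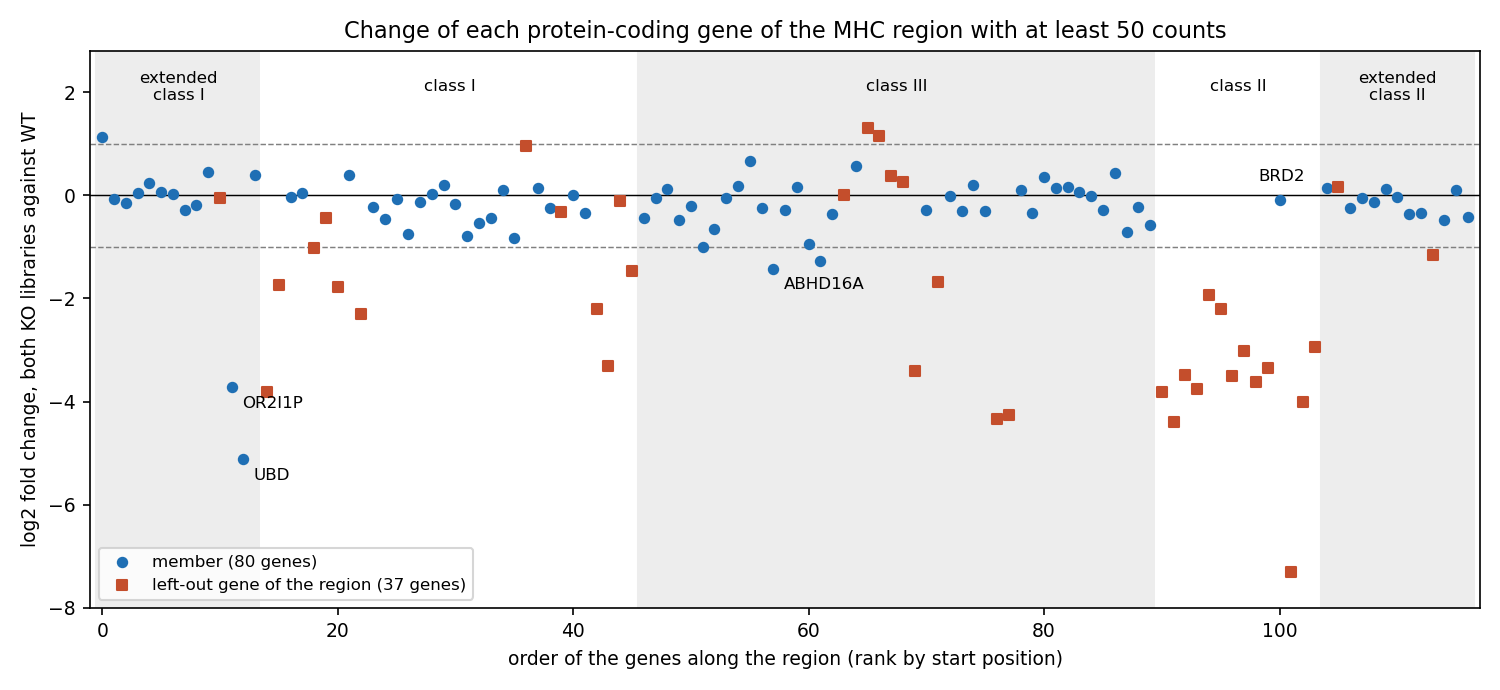
Log2 fold change of both KO libraries against WT (vertical axis) for the 117 protein-coding genes of the region with at least 50 counts, in their order along the chromosome (horizontal axis), with members as circles and left-out genes as squares; dashed lines mark a 2-fold change and shading separates the 5 blocks. Members lie around 0 in every block, with UBD at -5.11 and OR2I1P at -3.73 as the lowest, while all 13 left-out genes of the class II block lie below the lower dashed line.

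UBD fell furthest. UBD encodes FAT10, a ubiquitin-like modifier that is induced by interferon-gamma together with TNF and directs proteins to the proteasome. It lies at 29555515 to 29559732 on the minus strand, in the extended class I block, and had 188 counts in WT against 0 (library labelled sgFLI1-1) and 11 (library labelled sgFLI1-2). Its level was 8.53 FPKM in WT and 0.249 ± 0.352 in KO (SD, n = 2). At a floor of 3 counts per library it was at least 67.6-fold lower in the library labelled sgFLI1-1, and it was 17.3-fold lower in the library labelled sgFLI1-2. The edgeR log2 fold change was -5.11 (SE 0.85, adjusted p = 0.00453), while DESeq2 gave an adjusted p of 0.663 and did not call it.

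OR2I1P, an olfactory receptor gene often annotated as a pseudogene, overlaps the end of UBD on the opposite strand (29550407 to 29557721) and fell with it. It had 347 counts in WT against 47 (library labelled sgFLI1-1) and 8 (library labelled sgFLI1-2) (edgeR log2 fold change -3.73, SE 0.62, adjusted p = 0.00432), and DESeq2 did not call it (adjusted p = 0.236). Whether reads were counted by strand is not stated, so those of UBD and OR2I1P cannot be told apart where they overlap. GABBR1, a subunit of the GABA-B receptor whose annotated span also overlaps UBD, did not pass the test, with 110, 176 and 125 counts (log2 fold change 0.39, edgeR adjusted p = 0.603).

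ABHD16A, a phospholipase that makes lysophosphatidylserine, was the member lower by both edgeR and DESeq2. It lies at 31686955 to 31703356 on the minus strand in the class III block and had 1544 counts in WT against 639 (library labelled sgFLI1-1) and 563 (library labelled sgFLI1-2). Both KO libraries were well below WT and close to each other, at 38.4% and 36.1% of its WT value in counts per library total (CPM). The level was 34.0 FPKM in WT and 12.8 ± 0.877 in KO (SD, n = 2), and the edgeR log2 fold change was -1.42 (SE 0.18, adjusted p = 0.000779), a 2.68-fold fall. Its nearest left-out gene called lower was MICB, 175831 bp away. No member between them was called.

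FLOT1 and PPP1R18 passed the adjusted p but not the 2-fold threshold. FLOT1, a scaffold protein of membrane rafts, had 2557, 1592 and 1393 counts in WT, sgFLI1-1 and sgFLI1-2 (edgeR log2 fold change -0.84, SE 0.17, adjusted p = 0.014). PPP1R18, an actin-binding regulator of protein phosphatase 1, had 2767, 1554 and 1782 (-0.79, SE 0.18, edgeR adjusted p = 0.026). Both lie in the class I block, and for both genes each KO value lay below WT. Among members that were not called and held 50 counts in every library, the next largest differences downward were those of MSH5-SAPCD1, MSH5 and PPP1R10.

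MSH5, a meiotic recombination protein, and its readthrough with the next gene share exons and so share reads. MSH5-SAPCD1 had 195, 74 and 94 counts (edgeR log2 fold change -1.27, SE 0.36, adjusted p = 0.0634) and MSH5 had 207, 78 and 144 (-0.95, SE 0.40, edgeR adjusted p = 0.215). PPP1R10, a nuclear targeting subunit of protein phosphatase 1, had 2442, 1292 and 1733 (-0.75, SE 0.21, edgeR adjusted p = 0.0637). None of them passed the threshold, although every KO value lay under its WT value.

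No member passed the test in the upward direction. ENSG00000263020, a readthrough transcript with no symbol that overlaps CSNK2B and LY6G5B, had 1066 counts in WT against 2019 (library labelled sgFLI1-1) and 1509 (library labelled sgFLI1-2) (edgeR log2 fold change 0.66, SE 0.20, adjusted p = 0.0853). LSM2, a subunit of the ring that binds U6 snRNA and decaying mRNA, had 1014, 1654 and 1478 (0.57, SE 0.18, edgeR adjusted p = 0.0982). RNF5, a ubiquitin ligase of the endoplasmic reticulum, had 1014, 1505 and 1334 (0.42, edgeR adjusted p = 0.214). RPP21, a subunit of ribonuclease P, shares its reads with the left-out readthrough TRIM39-RPP21 and had 413, 539 and 586 (0.39). In these 4 genes both KO values lay above WT. ZBED9, a gene derived from a transposase, had 79, 152 and 75 (0.45, edgeR adjusted p = 0.639), above WT in the library labelled sgFLI1-1 only. ZNF165, a zinc finger gene known as a cancer-testis antigen, had the largest difference upward, 37, 93 and 76 counts (1.13, SE 0.46, edgeR adjusted p = 0.195), and it reached 50 counts only in KO.

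The libraries differed from each other in some members. At least 2-fold lower in the library labelled sgFLI1-1 were 10 members, where 11.4% of all tested genes were, and in the library labelled sgFLI1-2 it was 4, where 8.96% were. The 4 were UBD, OR2I1P, ABHD16A and MSH5-SAPCD1, all of which were also among the 10 and so lower in both, where 6.19% of all tested genes were. The other 6 were PPP1R10, ATP6V1G2-DDX39B, APOM, MSH5, AGER and GPSM3. ATP6V1G2-DDX39B, a readthrough, had 1589, 764 and 1655 counts, and GPSM3, a regulator of G-protein signalling in leukocytes, had 267, 125 and 246. In both genes the library labelled sgFLI1-2 stood near WT. The annotated span of the readthrough covers that of DDX39B, which had 12407, 13143 and 11633 counts. How reads were divided between the readthrough and DDX39B was not tested. The median absolute difference between the KO libraries was 0.162 on the log2 scale for the members and 0.226 for all tested genes.

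**Figure D2:**
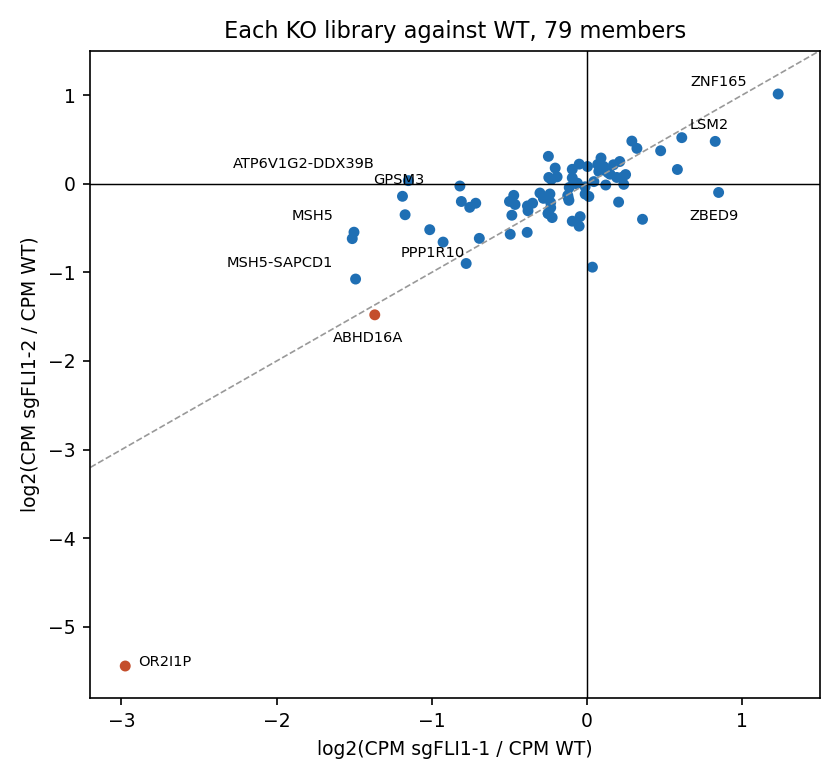
Log2 ratio of CPM to WT in the library labelled sgFLI1-1 (horizontal axis) and in the library labelled sgFLI1-2 (vertical axis) for 79 members, with genes called lower in red and the dashed line at equal change; UBD, with 0 counts in the library labelled sgFLI1-1, is not drawn. Most points lie near the origin, ABHD16A sits close to the line, and ATP6V1G2-DDX39B and GPSM3 are low in the library labelled sgFLI1-1 alone.

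Within 10 kb of a left-out gene called lower stood 11 members, whose median log2 fold change was -0.29 (range -0.47 to 0.19). By edgeR 0 of the 11 were called, a count that says little where 2.95% of all tested genes were called lower. Between 10 and 50 kb the median was -0.06 over 7 members, with 0 called, and beyond 50 kb it was -0.14 over 62 members, with 3 called. The 11 members ranged from 56.1% to 123% of their WT CPM over both KO libraries, and their 6 neighbours from 4.24% to 44.8%. The neighbours are named because they adjoin members, a choice made after their values were seen.

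BRD2, a bromodomain protein that reads acetylated histones, is the one member that the class II block contributes. By outermost annotated start it is the member nearest to a gene that fell. It lies at 32968594 to 32981505 on the plus strand. That start is 500 bp from the outermost start of HLA-DMA, a chaperone of class II peptide loading that is read in the opposite direction. RefSeq gives BRD2 further starts downstream, and which starts were used in these cells was not tested. BRD2 had 6556 counts in WT against 5971 (library labelled sgFLI1-1) and 6891 (library labelled sgFLI1-2) (edgeR log2 fold change -0.08, SE 0.18, adjusted p = 0.835). HLA-DMA had 863, 122 and 56 (-3.34, SE 0.33, edgeR adjusted p = 0.000164). The 5′ ends of the pair overlap, and reads there cannot be told apart. The KO values of BRD2 lay on either side of WT, and those of HLA-DMA lay far below it.

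The complement stretch of class III held 6 further members next to left-out genes that fell. NELFE, a subunit of the negative elongation factor that pauses RNA polymerase II, ends 3 bp from CFB and had 1839, 1948 and 1825 counts (log2 fold change -0.02), against 726, 297 and 175 for CFB. SKIV2L, the helicase of the SKI complex in RNA decay, had 1814, 1485 and 1550 (-0.32, edgeR adjusted p = 0.338). Neither member passed the test. DXO, an enzyme that removes aberrant mRNA caps, had 321, 365 and 399 counts (0.19), and STK19, which overlaps C4A, had 291, 266 and 227 (-0.30), against 3892, 178 and 220 for C4A. TNXB, the matrix protein tenascin-X, lies 5735 bp from C4B and had 1375, 1472 and 1599 (0.10), against 4829, 253 and 270 for C4B. ZBTB12, a zinc finger gene overlapping C2, had 205, 184 and 165 (-0.29), against 276, 25 and 29 for C2. In each of these pairs the member stayed at 75.9% of WT or more in both KO libraries. C4A and C4B are near-identical copies and their counts may be split between them.

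Around TAPBP, which encodes tapasin of the peptide-loading complex (7612, 3677 and 3433 counts), stand 4 members of the extended class II block. DAXX, a chaperone of histone H3.3, had 1709, 1763 and 2025 (log2 fold change 0.09), and RGL2, a regulator of Ral GTPases, had 612, 474 and 529 (-0.34). PFDN6, a prefoldin subunit, had 641, 388 and 640 (-0.37), and ZBTB22 had 156, 95 and 138 (-0.47). The last pair stood at 56.1% and 56.5% of their WT CPM in the library labelled sgFLI1-1 and at 98.8% and 87.5% in the other. None of the 4 passed the test.

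**Figure D3:**
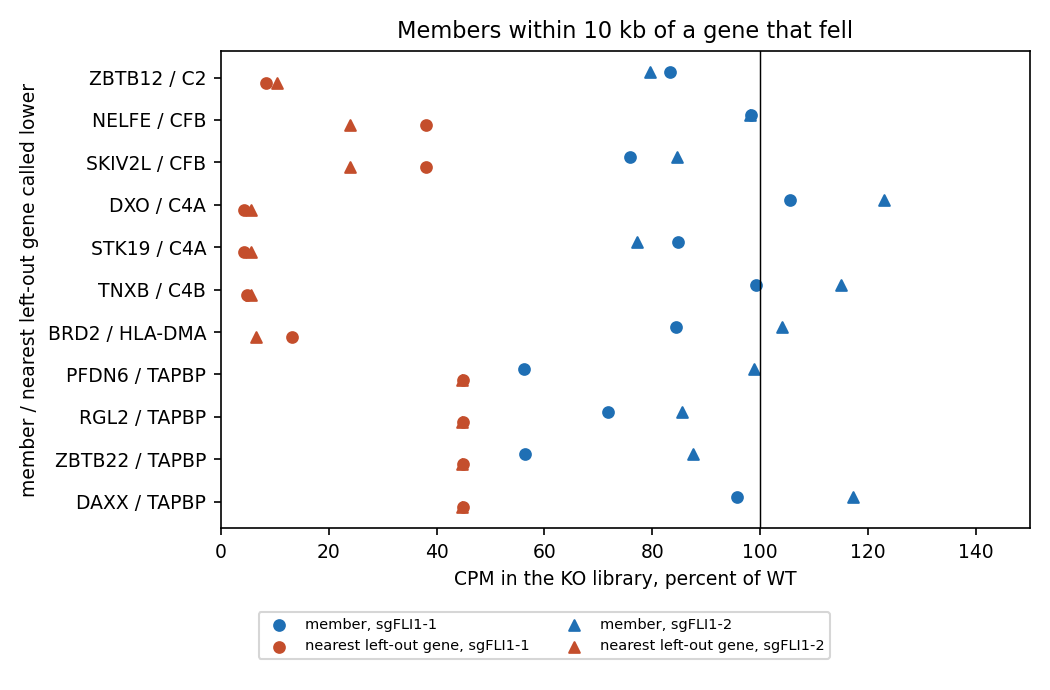
CPM in each KO library as a percent of WT (horizontal axis) for the 11 members within 10 kb of a left-out gene called lower (blue) and for that neighbour (red), with circles for sgFLI1-1 and triangles for sgFLI1-2. The members lie between 56.1% and 123% and the neighbours between 4.24% and 44.8%.

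**Figure D4:**
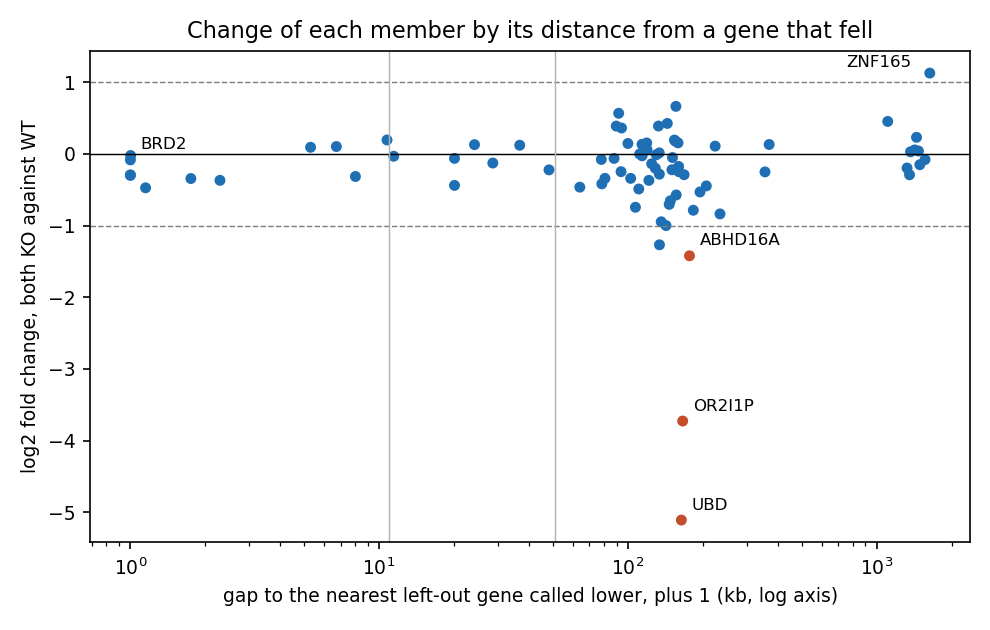
Log2 fold change of each member (vertical axis) against the gap to the nearest left-out gene called lower plus 1 kb, on a log axis, with called members in red, grey vertical lines at gaps of 10 and 50 kb and dashed lines at a 2-fold change. The 3 called members are among the 62 that lie beyond 50 kb, where the median is -0.14. The 11 members within 10 kb stay between -0.47 and 0.19, with a median of -0.29.

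By block, the members' medians spanned a narrow range. The 13 members of the extended class I block had a median of 0.03 with 2 called lower, the 20 of the class I block -0.16 with 0 called, the 35 of the class III block -0.22 with 1 called, and the 11 of the extended class II block -0.13 with 0 called. With 2.95% of all tested genes called lower, such small counts say little about the blocks. The 2 calls of the extended class I block were UBD and OR2I1P, which overlap each other and reached 50 counts only in WT. In the class II block all 13 left-out genes were called lower. The corresponding left-out genes numbered 7 of 12 called lower in the class I block and 4 of 9 in the class III block, where 2 were called higher.

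The most abundant members serve basic cell functions, and none of the 12 highest passed the test. That count says little about them, where 2.95% of all tested genes were called lower and 1.83% higher. TUBB, a beta-tubulin, stood at 1153 FPKM in WT against 1222 (library labelled sgFLI1-1) and 1296 (library labelled sgFLI1-2) (edgeR log2 fold change 0.11, SE 0.12, adjusted p = 0.664). RPS18, a protein of the small ribosomal subunit, stood at 1144, 1403 and 1393 FPKM (log2 fold change 0.13 on counts). CLIC1, a chloride channel protein, stood at 509, 595 and 545 FPKM (0.15). For all 3 both KO libraries lay above WT, by differences that missed the threshold. DDX39B, an RNA helicase of mRNA export, had a log2 fold change of -0.06 on counts and of 0.22 on FPKM with a pseudocount of 1, so its direction depends on the unit. The other 8 of the 12 most abundant members were CSNK2B, ABCF1, MRPS18B, BAG6, LSM2, PRRC2A, BRD2 and NELFE. Of these PRRC2A, an RNA-binding protein, had the largest difference downward, with 76.2, 46.8 and 65.7 FPKM (-0.49 on counts, edgeR adjusted p = 0.19).

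**Figure D5:**
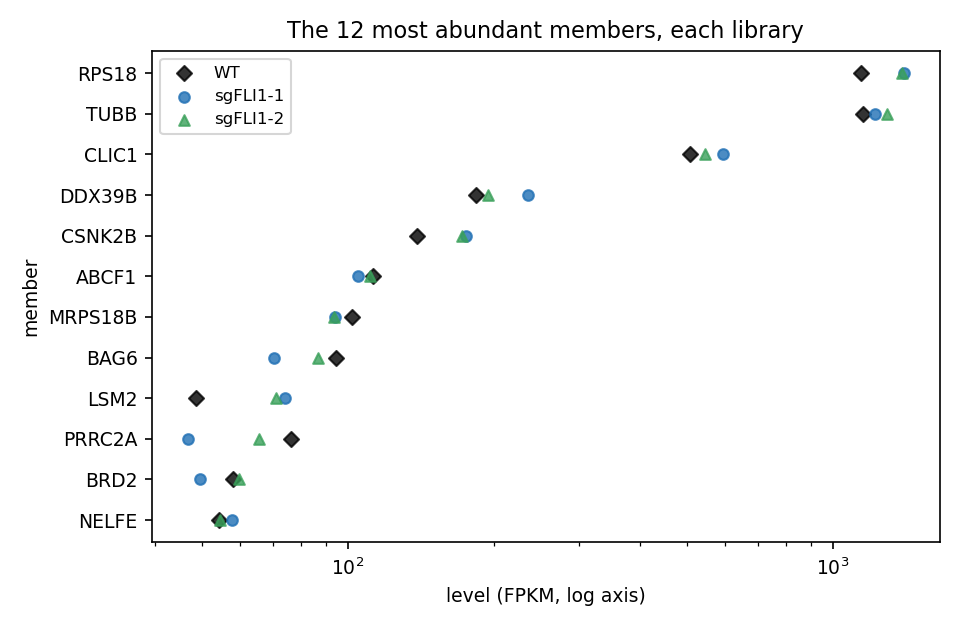
Level in FPKM (horizontal axis, log scale) of the 12 most abundant members in the WT library (diamonds), the library labelled sgFLI1-1 (circles) and the library labelled sgFLI1-2 (triangles). TUBB and RPS18 exceed 1000 FPKM in every library, and PRRC2A and LSM2 show the widest gaps between WT and KO.

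Grouped by function, the members had medians between -0.64 and 0.12. With 2.95% of all tested genes called lower, groups of this size would seldom hold a call, and their counts of 0 say nothing about the groups. Of 12 genes of RNA processing and translation 0 were called (median log2 fold change -0.11), as were 0 of 13 of transcription and chromatin (-0.22), 0 of 12 zinc finger and transposase-derived genes (-0.03), 0 of 9 of protein folding, ubiquitin and traffic (-0.05) and 0 of 7 of matrix, adhesion and signalling (0.10). Genes of cell division and the cytoskeleton had a median of -0.42 with 0 of 7 called, among them KIFC1, a minus-end kinesin, with 2030, 1550 and 1613 counts (-0.42, edgeR adjusted p = 0.199). Metabolic and lipid genes had 1 of 7 called (ABHD16A), with a median of -0.28. The 4 immune and surface protein genes, UBD, AGER, LY6G5B and GPSM3, were below WT in both KO libraries, where 40.8% of all tested genes were. The 1 called was UBD, which reached 50 counts only in WT. LY6G5B stood at 95.7% of its WT CPM in the library labelled sgFLI1-1, and GPSM3 at 91.2% in the library labelled sgFLI1-2.

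The TNF cluster was almost silent. TNF had 3, 3 and 10 counts in WT, sgFLI1-1 and sgFLI1-2, LTA had 3, 3 and 5, and LTB had 0, 1 and 5, while AIF1, LST1 and NCR3 were at 0 in every library. All of these stayed under the 50-count threshold. NFKBIL1, an NF-kappa-B inhibitor-like protein beside them, was the 1 gene of that cluster among the members, with 259, 326 and 262 counts (log2 fold change 0.12, edgeR adjusted p = 0.843). At the edge of the threshold, VWA7 (53, 58 and 28 counts) was the member with the lowest highest count, and COL11A2 (46, 26 and 44) stood just outside. CYP21A2, the steroid 21-hydroxylase gene, which has a near-copy pseudogene, stayed outside with 43, 5 and 5 counts. It lies at 32038327 to 32041644, between the left-out gene C4B and the member TNXB, and both KO values lay far below WT.

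Partners of the members encoded elsewhere were counted from a list of complexes. Of 65 genes found 63 were tested, and their median log2 fold change was 0.05. Of these 1 was called lower and 0 higher, where 2.95% and 1.83% of all tested genes were, so the counts do not set the partners apart. The gene that fell was NUB1 on chromosome 7, whose product binds FAT10 and speeds its breakdown, with 4623 counts in WT against 1494 (library labelled sgFLI1-1) and 1384 (library labelled sgFLI1-2) (edgeR log2 fold change -1.74, SE 0.16, adjusted p = 0.000114). UBA6, which activates FAT10, had 3273, 2524 and 2333 (-0.49, edgeR adjusted p = 0.124), and UBE2Z, which carries it onward, had 3548, 3621 and 3891 (0.02). Other subunits of the LSM ring, whose member LSM2 lay above WT, ranged from -0.73 to 0.24.

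Promoter letters were counted in the windows of 72 members that matched RefSeq by symbol. The interferon-gamma-activated site TTCNNNGAA was found for 5 (6.94%), GAAANNGAA for 12 (16.7%) and CCGGAAGT for 14 (19.4%), against 9.38%, 9.86% and 4.95% of all 27305 RefSeq genes. Among 20 matched left-out genes that were called lower, the corresponding numbers were 3 (15%), 11 (55%) and 0. The RefSeq genes were taken as a whole, while both of these groups held only protein-coding genes that reached the count threshold. Motifs were not counted in a matched set of such genes. Whether either group differs from other expressed protein-coding genes in these motifs was therefore not tested. The median log2 fold change was -0.14 for members with GAAANNGAA and -0.19 for those without, and it was -0.14 with CCGGAAGT and -0.19 without. For TTCNNNGAA it was 0.03 over the 5 members with a match and -0.18 over the 67 without. A gene can have several windows, and the letters are a description of these windows and not of binding.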

How the data were processed

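Members and lists were chosen with earlier results of these data known. The authors trimmed reads with fastp (0.23.2), aligned them to GRCh38.p12 with HISAT2 (2.0.4) and quantified with StringTie (1.3.4d), as their methods and the labels state. Deposited by the authors were raw counts of reads for each gene, with no normalization, and FPKM, in which fragments are divided by gene length and by library size. No source used here names the tool that made the counts. Columns KO1 and KO2 were matched to sgFLI1-1 and sgFLI1-2 by number, and a swap would exchange single-guide values. All 80 members were found in GENCODE release 44, 76 with the same start and end.

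Counts of 61550 genes were tested with edgeR (4.0.16, R 4.3.3), quasi-likelihood, TMM scaling and filterByExpr (minimum count 10), which left 15483 genes, both KO libraries against WT, with 1 residual and 9.56 prior degrees of freedom. P-values were two-sided and adjusted by Benjamini and Hochberg, and the SE was taken as the log2 fold change divided by the root of F. Depth was 22172158 to 23904587 counts per library, and the floor of 3 counts covers counting error only. Named were called members, the 12 of highest mean FPKM, the 5 largest uncalled changes each way with 50 counts in every library, UBD, the TNF cluster and the threshold's edge; other names, the motifs and the printed promoters were chosen after values were seen. Blocks were cut at the starts of HLA-F, MICB, HLA-DRA and HLA-DPB1. MICB and HLA-DPB1 were moved into the block before them after the block values were seen; no member moved, and the left-out genes called lower had been 6 in class I, 5 in class III, 12 in class II and 2 in extended class II. Alternatives were DESeq2 (1.42.0), median-of-ratios scaling, no filter, 50 counts in 1 library, quantile normalization with limma (3.58.1), each KO library left out, log2(FPKM + 1) or (FPKM + 0.1), no fold threshold and other choices of members. The quantile fit was run first at a prior count of 0.125 and, after its 0 calls were seen, again at 2, the tool's default, and both are given.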

Additional observations from a re-analysis of the deposited data

How the results depend on the processing

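No paired analysis was possible because there is 1 WT library. Against 3 members called lower, no filter on low counts gave 0 (38 genes lower of all), DESeq2 gave 1, no fold threshold gave 5, putting the left-out genes back gave 28 (and 2 higher), and keeping members with 50 counts in every library gave 1. Quantile normalization with limma gave 0 at either prior count; it called 0 of all 15483 genes at both (2520 genes at an unadjusted p under 0.05 at the prior count of 2, and 2505 at the lower one, which was run first), so it could not have called a member. Leaving out 1 KO library, with calls by a 2-fold size rule and no test, gave 4 to 10 lower and 1 to 1 higher.

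The median stayed negative in every alternative. Against -0.13 it was -0.128 without a filter, -0.142 with 50 counts in 1 library, -0.124 with median-of-ratios scaling, -0.0806 and -0.082 with quantile normalization at prior counts of 2 and the lower value, -0.104 with DESeq2, -0.123 on FPKM with a pseudocount of 1, -0.252 with the left-out genes put back, -0.0794 with 50 counts in every library, -0.128 with 200 counts in a library, -0.138 without members that overlap a left-out gene, and -0.124 to -0.123 with 1 KO library left out. Its difference from all tested genes, -0.134, became -0.108 without a filter and with DESeq2, -0.113 and -0.114 with quantile normalization, -0.123 and -0.126 on FPKM, -0.253 with the left-out genes put back, -0.0804 with 50 counts in every library, and -0.114 to -0.103 with 1 KO library left out.

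With 1 KO library left out BRD2 ranged from -0.23 to 0.048 and ZBED9 from -0.099 to 0.85, each turning without KO replicate 1. Other reversals took DDX39B to 0.22 on FPKM at both pseudocounts, and NELFE to 0.0052 with DESeq2 and to 0.051 and 0.052 on FPKM at pseudocounts of 1 and 0.1. UBD and OR2I1P lost their calls without a filter (adjusted p = 0.298 and 0.297), with DESeq2 (0.663 and 0.236) and with quantile normalization. ABHD16A lost its call without a filter (edgeR adjusted p = 0.103) and with quantile normalization, and MSH5-SAPCD1 gained one with median-of-ratios scaling (edgeR adjusted p = 0.0492). Why calls changed was not tested. With 1 WT library an error in it moves every member, and low members carry few counts.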
